A study of Mus musculus with 12 samples.

Results

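The genes described here are the members of the Hoxc cluster, a run of homeobox genes on mouse chromosome 15. Every probe set whose only gene symbol in the platform annotation was Hoxc followed by a number was taken, which gave 5 of 12422 probe sets, 1 each for Hoxc4 (102660_at), Hoxc5 (95312_at), Hoxc6 (99980_at), Hoxc8 (93378_at) and Hoxc9 (92891_f_at). The probe set of Hoxc9 carries the maker's mark for probes that can match related sequences, so its signal may include other transcripts. The cluster has 9 Hoxc genes in the RefSeq gene table of GRCm38.p6, and Hoxc10, Hoxc11, Hoxc12 and Hoxc13 were not analysed here.

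The arrays measured mRNA in fat of male C57BL/6 mice, an inbred strain, aged 42 to 49 days. Flank subcutaneous fat and epididymal intraabdominal fat of 10 mice were each pooled by depot and digested with collagenase. The floating fraction gave the adipocytes, and the pellet, after lysis of red cells and 16 h of plating with serum, gave the stromo-vascular fraction (SVF), which holds preadipocytes and other cell types. The 4 groups of 3 arrays each were subcutaneous adipocytes, intraabdominal adipocytes, subcutaneous SVF and intraabdominal SVF. Only the SVF was cultured, so fraction and culture cannot be told apart, and the labels do not say whether the 3 arrays of a group came from separate pools. The p-values therefore measure the spread between these arrays, which may be technical.

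Hox genes encode homeodomain transcription factors that give cells along the head-to-tail axis their regional identity. Their order on the chromosome follows the order of the body levels at which they become active in the embryo: low paralog numbers are active from more anterior levels, high numbers only further back. Cells of connective tissue keep much of this pattern in the adult, and fat depots differ in which Hox genes they express. Hoxc4 and Hoxc5 belong to the neck and upper trunk, Hoxc6 is active at forelimb level, Hoxc8 patterns the thoracic skeleton and the motor neurons of the forelimb, and Hoxc9 gives thoracic motor neurons their identity. The cluster also holds microRNA genes. The mature sequences are shown because miR-196a, made from the gene next to Hoxc9, is known to direct cleavage or repression of Hoxb8 and Hoxc8 messages, and because the gene of miR-615 lies within Hoxc5. The microRNAs themselves were not analysed here. The capitals mark the seed (bases 2 to 8), and the sequences are those of RefSeq on GRCm38.p6.
miR-196a-5p: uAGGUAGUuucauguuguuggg
miR-196a-2-3p: uCGGCAACaagaaacugccuga
miR-615-5p: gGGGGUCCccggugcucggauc
miR-615-3p: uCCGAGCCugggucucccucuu
The first of these lies at chr15:102973365-102973386 and the last at chr15:103014969-103014990, both on the plus strand. The 4 seeds differ from each other.

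Values are MAS5 signals, a brightness on a linear scale that the authors had brought to a common level on every array. A signal was called near background where it was at or below the 30th percentile of all probe sets on its array, which was 142 to 232 over the 12 arrays, and a gene was near background in a group where 2 or more of 3 arrays were. By this rule none of the 20 combinations of gene and group was near background. Fewer were above it with a stricter limit, the 90th percentile of 28 probe sets of genes not expected in fat. Hoxc8 was above that limit on 2 or more of 3 arrays in all 4 groups. Hoxc4 was above it on no array, and Hoxc9 on 1 of 3 subcutaneous adipocyte arrays. The labelled cell types had their markers: the summed signal of 10 adipocyte markers was 542523 to 729721 in the adipocyte groups and 20151 to 33297 in the SVF groups. The ratio of the 3' to the 5' actin control probe sets, which rises where RNA is degraded or incompletely copied, was 2.85 ± 0.43 in subcutaneous and 2.04 ± 0.29 in intraabdominal adipocytes, against 1.22 ± 0.02 in subcutaneous and 1.17 ± 0.05 in intraabdominal SVF (SD, n = 3 each). It was higher in the 6 adipocyte arrays than in the 6 SVF arrays (two-sided exact permutation test, p = 0.00216). Between the adipocytes of both depots the exact permutation test gave p = 0.1, the smallest that 3 against 3 arrays allow. Each array is of a mixture of cells, so fewer cells of a type and less RNA per cell cannot be told apart.

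Hoxc4, the most 3' gene of the cluster, overlapped between most groups. Its signal was 405, 239.9 and 526 in subcutaneous adipocytes and 418, 374 and 394 in intraabdominal adipocytes. In subcutaneous SVF it was 420.3, 292 and 283, against 512, 574 and 461 in intraabdominal SVF. The intraabdominal SVF arrays lay above all arrays of intraabdominal adipocytes and of subcutaneous SVF, while the other groups overlapped their neighbours in the order of means. Hoxc4 passed the test in none of the 6 comparisons described below.

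Hoxc5 was the dimmest relative to its arrays in the SVF. Its signal was 372, 703 and 406 in subcutaneous adipocytes and 727, 592 and 502 in intraabdominal adipocytes. It was 217, 195 and 421 in subcutaneous SVF, against 117, 250.1 and 303 in intraabdominal SVF. The array at 117 was the only Hoxc value below the 30th percentile of its own array (157). All neighbouring groups in the order of means overlapped, and the SD reached 45% of the mean in subcutaneous SVF and 43% in intraabdominal SVF.

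Hoxc6 was higher in adipocytes than in SVF of the same depot on every array. Its signal was 1397, 1304 and 726 in subcutaneous adipocytes and 725, 833 and 1133 in intraabdominal adipocytes. It was 587, 429.6 and 697 in subcutaneous SVF, against 514, 462 and 388 in intraabdominal SVF. The adipocyte groups overlapped each other, and so did the SVF groups.

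Hoxc8 separated all 4 groups. Its signal was 1519.9, 1276 and 1996 in subcutaneous adipocytes, against 2461, 2157 and 2835 in intraabdominal adipocytes. In subcutaneous SVF it was 1233, 1099.8 and 1102, against 3368, 3185 and 3500.3 in intraabdominal SVF. In the order of means, intraabdominal SVF stood highest, then intraabdominal adipocytes, subcutaneous adipocytes and subcutaneous SVF, and no neighbours in that order overlapped. The closest approach was between the lowest subcutaneous adipocyte array, 1276, and the highest subcutaneous SVF array, 1233. How many of all probe sets separate the 4 groups was not counted. In the pairwise comparisons below, 24.3% to 60% of all probe sets had groups that did not overlap.

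Hoxc9, the neighbour of Hoxc8, was highest in subcutaneous adipocytes. Its signal was 1295, 1203 and 1069.9 there, against 669, 583 and 772 in intraabdominal adipocytes. It was 622, 594 and 478 in subcutaneous SVF, against 773, 706 and 765 in intraabdominal SVF. Subcutaneous adipocytes lay above every other array. Intraabdominal SVF and intraabdominal adipocytes overlapped, as did intraabdominal adipocytes and subcutaneous SVF.

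**Figure D1:**
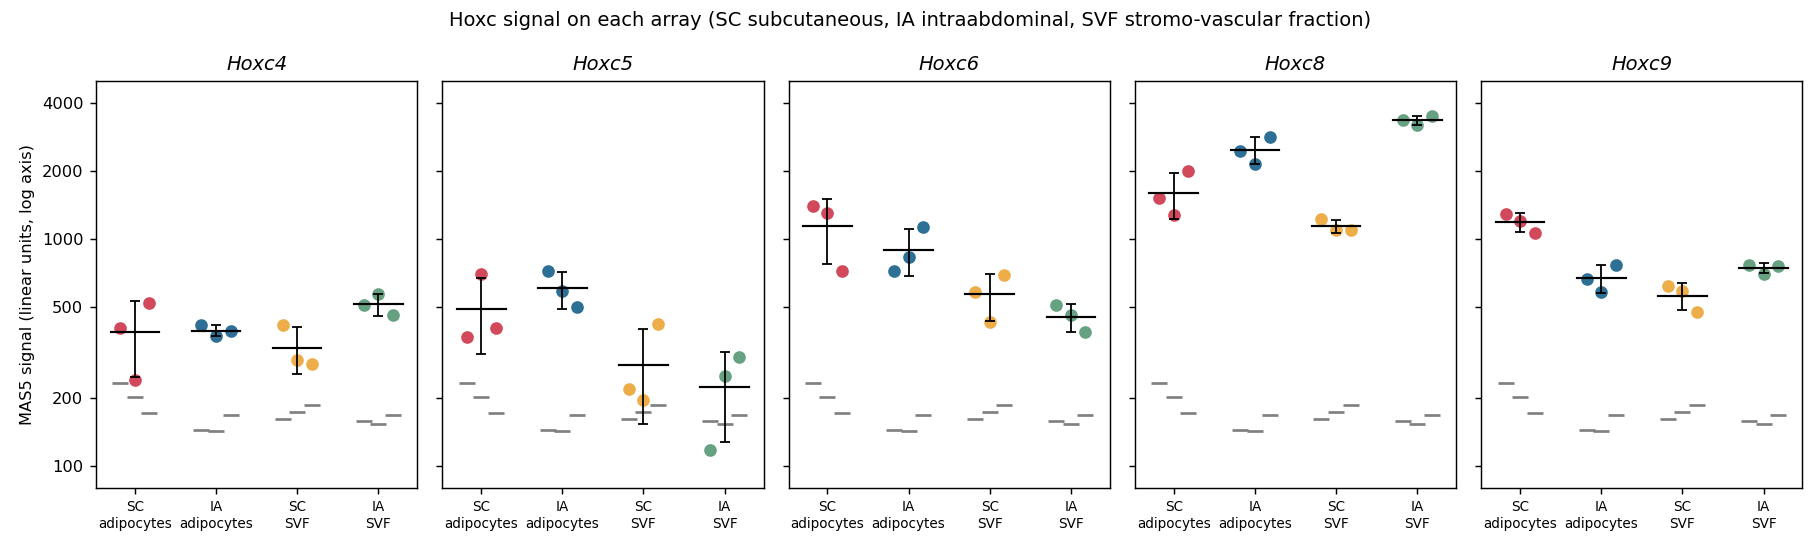
MAS5 signal (linear units, log axis) of each Hoxc probe set on each of the 12 arrays, with the group mean and SD (n = 3) as lines and the 30th percentile of each array as a grey dash. Hoxc8 separates the 4 groups, from 1099.8 to 3500.3, and a single Hoxc5 value, 117 in intraabdominal SVF, lies below its dash.

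Adipocytes of the subcutaneous and intraabdominal depots differed in Hoxc8 and Hoxc9, in opposite directions. Hoxc8 averaged 1597 ± 366 in subcutaneous and 2485 ± 340 in intraabdominal adipocytes (SD, n = 3 each), and was 1.56-fold lower in subcutaneous cells (log2 difference -0.64 ± 0.17 SE, limma adjusted p = 0.0330). Hoxc9 averaged 1189 ± 113 in subcutaneous and 674 ± 94.6 in intraabdominal adipocytes, 1.73-fold higher in subcutaneous cells (log2 difference 0.79 ± 0.19 SE, limma adjusted p = 0.0222). Folds here and below are taken after 40.09 was added to every signal as a pseudocount, which understates changes of dim genes. Of the 5 genes 1 was called higher and 1 lower at an adjusted p under 0.05, where 8.13% of the 8695 probe sets tested were called in either direction (3.97% higher, 4.16% lower), and the groups did not overlap for the same 2 genes, where 24.3% of all probe sets had groups that did not overlap. The log2 differences of Hoxc4, Hoxc5 and Hoxc6 were -0.07, -0.32 and 0.31, with limma adjusted p of 0.897, 0.636 and 0.522. The median log2 difference of the Hoxc genes was -0.07, and that of all probe sets 0.07.

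Both adipocyte calls were lost without single arrays. The limma adjusted p of Hoxc8 was 0.0734 or 0.107 without subcutaneous adipocyte array 1 or 2, 0.0923 or 0.0764 without intraabdominal adipocyte array 1 or 3, and 0.0502 without subcutaneous SVF array 2. That of Hoxc9 was 0.0597 or 0.0523 without subcutaneous adipocyte array 1 or 2, and 0.0663 or 0.0919 without intraabdominal adipocyte array 1 or 2. With the actin ratio as a covariate the log2 differences were -0.32 for Hoxc8 (limma adjusted p = 0.695) and 0.67 for Hoxc9 (limma adjusted p = 0.385). With this covariate the calls over all probe sets fell from 707 to 97. Centring each array on its median moved the median of all probe sets to -0.15. Taking a constant from each array cannot change a difference relative to that median, which was -0.71 for Hoxc8 and 0.72 for Hoxc9. The limma adjusted p of Hoxc9 became 0.0652 with centring. The calls over all probe sets, 345 higher and 362 lower, became 172 higher and 786 lower. The sum of 11 preadipocyte and fibroblast markers was 57308 to 83789 in subcutaneous and 48684 to 55298 in intraabdominal adipocytes (2 called higher). That of 9 skin and keratinocyte markers was 3711 to 4755 in subcutaneous and 2958 to 3385 in intraabdominal adipocytes (none of 3 tested called), and none of the smooth muscle or mesothelium markers was called. Of 9 macrophage markers 1 was called higher. Lower were 1 of 8 endothelium, 1 of 6 tested skeletal muscle and 1 of 10 adipocyte markers. The part of these cell types in the Hoxc8 and Hoxc9 differences was not tested.

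In the SVF the depot difference was that of Hoxc8. It averaged 1145 ± 76.4 in subcutaneous and 3351 ± 158 in intraabdominal SVF (SD, n = 3 each), 2.86-fold lower in subcutaneous cells (log2 difference -1.52 ± 0.17 SE, 95% confidence interval -1.88 to -1.15, limma adjusted p = 2.42e-05). It was the only Hoxc gene called, where 12.9% of all probe sets were called in either direction (6.49% higher, 6.45% lower). It was called under all 23 alternative settings, with limma adjusted p from 6.11e-07 to 0.000280. Hoxc9 also had every subcutaneous array below every intraabdominal one, at 565 ± 76.4 in subcutaneous against 748 ± 36.5 in intraabdominal SVF, but its log2 difference of -0.39 (95% confidence interval -0.80 to 0.02) had a limma adjusted p of 0.232. So did Hoxc4, at 332 ± 77.0 in subcutaneous against 516 ± 56.5 in intraabdominal SVF, with a log2 difference of -0.59 (95% confidence interval -1.22 to 0.03) and a limma adjusted p of 0.226. The groups thus did not overlap for 3 of 5 genes, where 37.3% of all probe sets had groups that did not. Hoxc5 and Hoxc6 differed by 0.28 and 0.29 on the log2 scale, with limma adjusted p of 0.723 and 0.584.

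Markers of other cell types moved with the depot in the SVF. The summed signal of 7 smooth muscle markers was 32679 to 34640 in subcutaneous and 125740 to 151814 in intraabdominal SVF, and all 7 were called lower in subcutaneous cells. That of 8 mesothelium markers was 1521 to 2017 in subcutaneous and 7294 to 7618 in intraabdominal SVF, with 5 of 6 tested called lower. Of 9 macrophage markers 1 was called higher and 5 lower, with sums of 20881 to 21608 in subcutaneous and 28872 to 33260 in intraabdominal SVF. Other lists were higher in subcutaneous SVF. The sum of 11 preadipocyte and fibroblast markers was 344124 to 375906 in subcutaneous and 240335 to 269934 in intraabdominal SVF (3 called higher, 1 lower). That of 8 endothelium markers was 3661 to 4444 in subcutaneous and 1920.2 to 2524 in intraabdominal SVF (5 called higher), and that of 10 skeletal muscle markers was 5331 to 5801 in subcutaneous and 3063 to 3907 in intraabdominal SVF (1 of 6 tested called higher, 1 lower). The part of these cell types in the Hoxc8 difference was not tested. No list had a marker listed at 0, since every signal in the table was above 0.

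**Figure D2:**
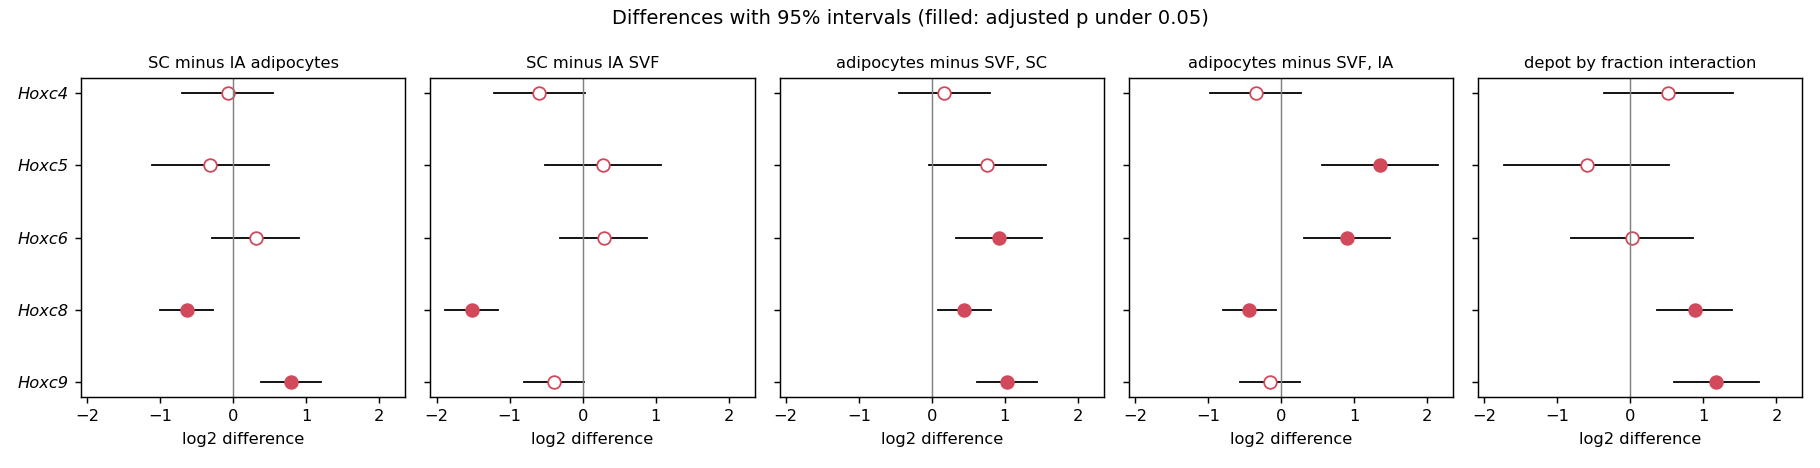
Log2 differences of the 5 Hoxc genes with 95% confidence intervals (limma, 12 arrays) in the depot comparisons of each fraction, the fraction comparisons of each depot and the interaction (SC subcutaneous, IA intraabdominal), filled where the adjusted p is under 0.05. Hoxc8 lies below 0 in both depot comparisons, at -0.64 in adipocytes and -1.52 in SVF, whereas Hoxc9 lies at 0.79 and -0.39.

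Averaged over both fractions, Hoxc8 was 2.11-fold lower in the subcutaneous depot (log2 difference -1.08 ± 0.12 SE, limma adjusted p = 2.79e-05), and it was called under all 22 alternatives. It was the only Hoxc gene called on the mean of both fractions, where 15% of all probe sets were called (7.86% higher, 7.17% lower). The log2 differences of Hoxc4, Hoxc5, Hoxc6 and Hoxc9 were -0.33, -0.02, 0.30 and 0.20, with limma adjusted p of 0.287, 0.970, 0.322 and 0.341. With the arrays centred 376 probe sets in all were called higher and 1055 lower, against 683 higher and 623 lower as deposited.

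The depot difference depended on the fraction for Hoxc8 and Hoxc9. The interaction, which is the subcutaneous minus intraabdominal difference in adipocytes less that in SVF, was 0.88 ± 0.24 (SE, log2) for Hoxc8 (limma adjusted p = 0.0351) and 1.18 ± 0.27 for Hoxc9 (limma adjusted p = 0.0139). For Hoxc8 the depots differed in the same direction in both fractions and by less in adipocytes. For Hoxc9 the difference was positive in adipocytes and -0.39, not called, in SVF. These were 2 of 5 genes called, both higher, where 8.43% of all probe sets were called in either direction (3.9% higher, 4.53% lower). The interactions of Hoxc4, Hoxc5 and Hoxc6 were 0.52, -0.59 and 0.02, with limma adjusted p of 0.524, 0.579 and 0.987.

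The Hoxc9 interaction was called without any 1 of the 12 arrays. That of Hoxc8 was called only without subcutaneous adipocyte array 1 or 2 or intraabdominal adipocyte array 3. Without any of the other 9 its limma adjusted p was 0.0537 to 0.0941. With the actin ratio as a covariate the interaction was 1.16 for Hoxc8 (limma adjusted p = 0.0377) and 1.08 for Hoxc9 (limma adjusted p = 0.110). With this covariate the calls over all probe sets fell from 733 to 403. With the arrays centred the interaction was 0.72 for Hoxc8 (limma adjusted p = 0.120) and 1.02 for Hoxc9 (limma adjusted p = 0.0277). The calls over all probe sets were then 229 higher and 466 lower, against 339 and 394 as deposited.

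The log2 ratio of Hoxc9 to Hoxc8 signal on the same array, a measure chosen after the values were seen and given with no test, does not depend on a factor common to an array beyond the effect of the pseudocount. It was -0.23, -0.08 and -0.88 in subcutaneous adipocytes, against -1.82 on each of the 3 intraabdominal adipocyte arrays. In subcutaneous SVF it was -0.94, -0.85 and -1.14, against -2.07, -2.11 and -2.14 in intraabdominal SVF. Every subcutaneous array thus lay above every intraabdominal array, whichever the fraction. Hoxc8 signal alone also separated the depots, with no subcutaneous array above 1996 and no intraabdominal array below 2157. How many pairs of probe sets have such a ratio was not counted. The ratio shows unequal change of both signals and not their relative abundance, since probe sets differ in brightness per molecule.

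**Figure D3:**
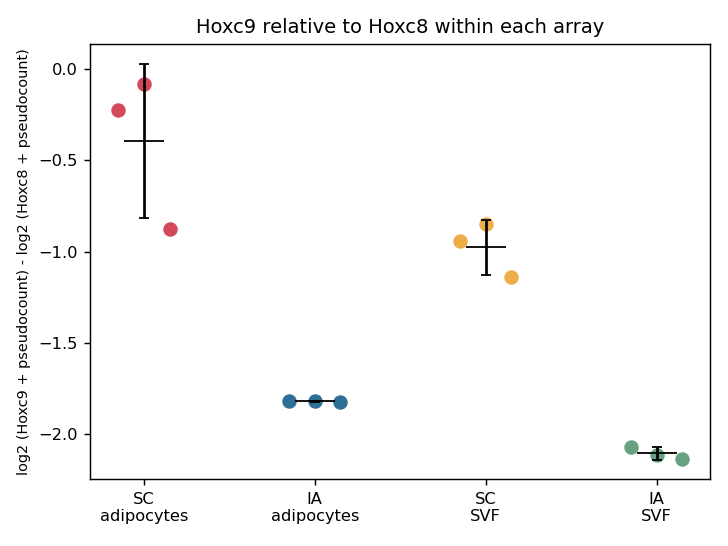
Log2 ratio of Hoxc9 to Hoxc8 signal (each plus the pseudocount) on each array, with the group mean and SD as lines (n = 3; SC subcutaneous, IA intraabdominal). The 6 subcutaneous arrays lie between -1.14 and -0.08, the 6 intraabdominal arrays between -2.14 and -1.82.

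Between the fractions the Hoxc genes did not move as a block. In the subcutaneous depot 3 were called higher in adipocytes and none lower, where 52.8% of all probe sets were called in either direction (23.5% higher, 29.4% lower). Hoxc9 was 2.04-fold higher in adipocytes (1189 ± 113 in adipocytes against 565 ± 76.4 in SVF, log2 difference 1.03 ± 0.19 SE, limma adjusted p = 0.000395). Hoxc6 was 1.90-fold higher (1143 ± 364 in adipocytes against 571 ± 135 in SVF, log2 difference 0.92 ± 0.28 SE, limma adjusted p = 0.0114). Hoxc8 was 1.36-fold higher (1597 ± 366 in adipocytes against 1145 ± 76.4 in SVF, log2 difference 0.44 ± 0.17 SE, limma adjusted p = 0.0392). Hoxc4 and Hoxc5 differed by 0.17 and 0.76, with limma adjusted p of 0.651 and 0.102. The same 3 called genes were those whose groups did not overlap, where 60% of all probe sets had groups that did not.

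In the intraabdominal depot 2 Hoxc genes were called higher in adipocytes and 1 lower, where 51.3% of all probe sets were called in either direction (22.4% higher, 29% lower). Hoxc5 was 2.56-fold higher in adipocytes (607 ± 113 in adipocytes against 224 ± 95.6 in SVF, log2 difference 1.36 ± 0.37 SE, limma adjusted p = 0.00696). Hoxc6 was 1.87-fold higher (897 ± 211 in adipocytes against 455 ± 63.4 in SVF, log2 difference 0.91 ± 0.28 SE, limma adjusted p = 0.0129). Hoxc8 was 1.35-fold lower (2485 ± 340 in adipocytes against 3351 ± 158 in SVF, log2 difference -0.43 ± 0.17 SE, limma adjusted p = 0.0449), the opposite of its direction in the subcutaneous depot. Hoxc4 and Hoxc9 differed by -0.35 and -0.15, with limma adjusted p of 0.343 and 0.549. The groups did not overlap for 4 of 5 genes, Hoxc4 with the called ones, where 59.9% of all probe sets had groups that did not. With 3 of 5 genes called in each depot, the Hoxc genes were close to the share of all probe sets called.

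The fraction calls of Hoxc8 and Hoxc6 depended on single arrays, and those of Hoxc8 also on settings. In the subcutaneous depot the limma adjusted p of Hoxc8 was 0.0502 to 0.164 without subcutaneous adipocyte array 1 or 3, any subcutaneous SVF array, or intraabdominal SVF array 2 or 3. In the intraabdominal depot it was 0.0547 to 0.164 without intraabdominal adipocyte array 1 or 2 or any SVF array of either depot. With all arrays kept, the subcutaneous Hoxc8 call was lost with centring (0.0620), array weights (0.0539), only the groups compared (0.0902), no intensity trend (0.0537) and the actin covariate (0.164). The intraabdominal one was lost with no filter (0.0557), centring (0.237), quantile normalization (0.122), no intensity trend (0.0610) and the covariate, all limma adjusted p. The limma adjusted p of Hoxc6 was 0.0587 in the subcutaneous depot without subcutaneous SVF array 2, and 0.0599 in the intraabdominal depot without intraabdominal adipocyte array 3. Hoxc5 was called in the subcutaneous depot without subcutaneous SVF array 3 (log2 difference 1.06, limma adjusted p = 0.0393). With the actin ratio as a covariate no Hoxc gene was called between fractions in either depot, and Hoxc6 had a log2 difference of -0.96 in the subcutaneous and -0.32 in the intraabdominal depot (limma adjusted p = 0.492 and 0.724). With this covariate the calls over all probe sets fell from 4594 to 1058 in the subcutaneous and from 4462 to 2173 in the intraabdominal depot. The ratio itself separated the fractions, as given above, and the part of RNA quality in these differences was not tested. All 8 endothelium markers were called higher in adipocytes in both depots, with sums of 13308 to 20800.0 in adipocytes and 1920.2 to 4444 in SVF. The preadipocyte and fibroblast sum was 48684 to 83789 in adipocytes and 240335 to 375906 in SVF. Of these 11 markers 8 were called lower and 1 higher in subcutaneous adipocytes, and 9 lower and 1 higher in intraabdominal adipocytes. The smooth muscle sum was 4135 to 7036 in adipocytes and 32679 to 151814 in SVF. Of these 7 markers 3 were called lower and 1 higher in subcutaneous adipocytes, with a median log2 difference of 0.17. All 7 were called lower in intraabdominal adipocytes. The part of these cell types was not tested.

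Across the 12 arrays the Hoxc genes did not share 1 pattern. The highest correlation of log2 values was between Hoxc4 and Hoxc8 (Pearson r = 0.74, and 0.75 within groups after the group means were taken out). Hoxc5 and Hoxc6 had r = 0.65, but 0.06 within groups. Hoxc8 and Hoxc9, which lie side by side, had r = 0.06. These are descriptions over arrays that share groups and a common scaling, and may share tissue pools.

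For each Hoxc gene the 3 other genes most alike over the 12 arrays were taken by Pearson r among the probe sets tested. Hoxc8 was followed most closely by Atp6v0d1, a subunit of the vacuolar proton pump (r = 0.96), Fgfr2, a fibroblast growth factor receptor (r = 0.96), and Ubfd1 (r = 0.95). Fgfr2 averaged 1293 ± 233 in subcutaneous and 1643 ± 250.1 in intraabdominal adipocytes, and 761 ± 54.6 in subcutaneous and 2527 ± 226 in intraabdominal SVF (SD, n = 3 each), the same order of group means as Hoxc8. Hoxc9 was most like 2510002D24Rik (r = 0.91), Batf3, a leucine zipper transcription factor (r = 0.90), and Crybg1 (r = 0.90). Batf3 averaged 809.9 ± 139 in subcutaneous and 514 ± 109 in intraabdominal adipocytes, and 335 ± 68.2 in subcutaneous and 399.6 ± 76.8 in intraabdominal SVF. For Hoxc6 the genes were Ung, a uracil DNA glycosylase (r = 0.96), Nap1l4, a histone chaperone (r = 0.94), and Gamt, which makes creatine (r = 0.94). For Hoxc5 they were Crem (r = 0.94), Rps28 (r = 0.93) and Utrn (r = 0.93), and for Hoxc4 Ubxn1 (r = 0.89), Celf2 (r = 0.88) and Gtf2a1 (r = 0.85). High r is what a search over 8695 probe sets selects, so these values describe only the order of likeness.

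The other Hox clusters on the same arrays had 14 Hoxa, 10 Hoxb and 9 Hoxd probe sets, of which 8, 7 and 3 were bright enough to be tested. All 5 Hoxc probe sets were. Among the paralogs of the Hoxc genes measured, Hoxa5 had the directions of Hoxc8. It averaged 838 ± 236 in subcutaneous and 1605 ± 311 in intraabdominal adipocytes, and 243 ± 39.6 in subcutaneous and 1657 ± 45.4 in intraabdominal SVF (SD, n = 3 each). Its log2 depot difference was -0.92 in adipocytes (limma adjusted p = 0.0218) and -2.60 in SVF (limma adjusted p = 2.05e-06), with an interaction of 1.67 (limma adjusted p = 0.00384). Hoxa7, of a paralog number not measured for Hoxc, differed by -0.68 in adipocytes (limma adjusted p = 0.196). It was near background in subcutaneous SVF, at 152 ± 68.2 against 811 ± 93.9 in intraabdominal SVF, and called lower there (limma adjusted p = 0.000203). Its interaction was called too (limma adjusted p = 0.0476). Hoxb8, a paralog of Hoxc8, went the other way on the mean of both fractions, with a log2 difference of 0.52 (limma adjusted p = 0.0354, probe set 96418_r_at). The other Hoxb8 probe set, 96417_s_at, was near background in every group but subcutaneous adipocytes and was not tested.

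Between fractions more paralogs were called. Hoxa5, a paralog of Hoxc5, was higher in adipocytes of the subcutaneous depot by a log2 difference of 1.61 (limma adjusted p = 2.61e-05). In the intraabdominal depot it was not called (-0.06, limma adjusted p = 0.840). Hoxb5, a paralog of Hoxc5, was higher in adipocytes by a log2 difference of 1.70 in the subcutaneous and 1.56 in the intraabdominal depot (limma adjusted p = 0.000310 and 0.000629). Hoxa6 (probe set 102580_r_at) and Hoxb6, paralogs of Hoxc6, were higher in subcutaneous adipocytes by 0.70 and 0.89 (limma adjusted p = 0.0302 and 0.0137). The other Hoxa6 probe set, 102579_f_at, was near background in all 4 groups and not tested. Hoxa4, a paralog of Hoxc4, was higher by 0.70 and 0.48 in the 2 depots with its brightest probe set, 97747_r_at (limma adjusted p = 0.00371 and 0.0333). A second Hoxa4 probe set, 97745_at, was not called in either depot (0.65 and 0.40, limma adjusted p = 0.130 and 0.364). The other Hoxa4 probe sets, 97746_f_at and 162402_r_at, were not tested. The first was near background in all 4 groups, the second in every group but intraabdominal adipocytes. Hoxd8 was lower in intraabdominal adipocytes with both its probe sets, by log2 differences of -0.72 with the brighter, 160460_at, and -1.03 with 93221_at (limma adjusted p = 0.0198 and 0.00311). In the subcutaneous depot 160460_at was not called (-0.41, limma adjusted p = 0.163), whereas 93221_at was called lower (-0.77, limma adjusted p = 0.0184).

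**Figure D4:**
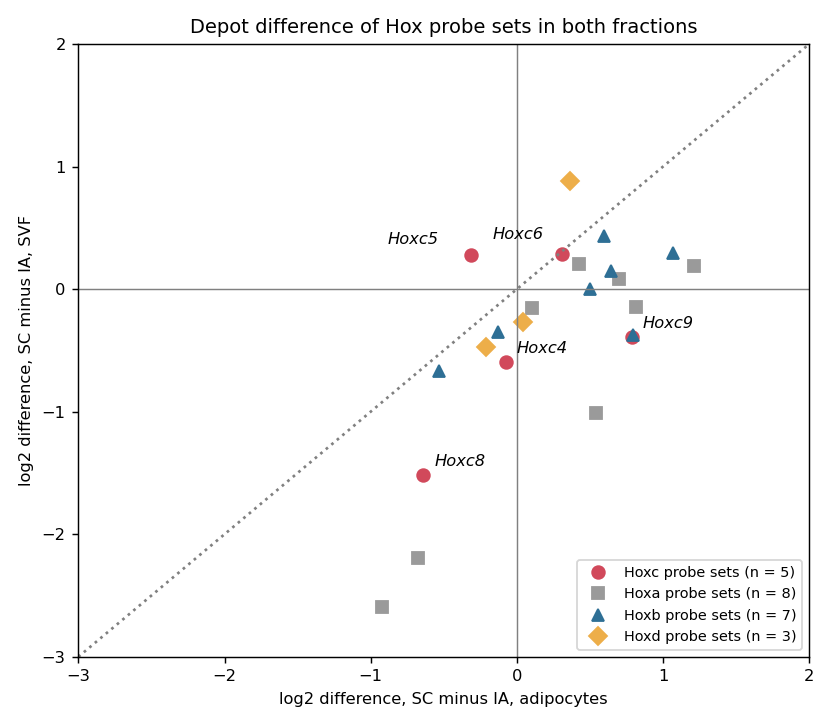
Log2 difference of subcutaneous minus intraabdominal cells in adipocytes (horizontal) and in SVF (vertical) for the 23 Hox probe sets tested, by cluster, with the line of equal difference dotted. Hoxc8 lies at -0.64 and -1.52 in the lower left. Hoxa7 at -0.68 and -2.19 (near background in subcutaneous SVF) and Hoxa5 at -0.92 and -2.60 lie further out. Hoxc9 lies at 0.79 and -0.39 on the lower right.

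Hox proteins bind DNA together with cofactors of the Pbx, Meis and Pknox families. Of 9 cofactor genes 6 were on the array and 4 were tested. None of the 4 tested was called by depot in either fraction, where 8.13% and 12.9% of all probe sets were called in adipocytes and SVF. Meis1 and Meis2 were too dim over the 12 arrays to be tested. Meis1 was 197 to 294 in subcutaneous and 436 to 568 in intraabdominal SVF, without overlap, as for 37.3% of all probe sets tested. Meis2 overlapped between them. Between fractions 2 of the 4 tested were called lower in adipocytes in both depots, where 29.4% and 29% of all probe sets were called lower. Pbx3 averaged 474 ± 188 in subcutaneous and 605 ± 104 in intraabdominal adipocytes, against 2529 ± 343 in subcutaneous and 2428 ± 275 in intraabdominal SVF, with log2 differences of -2.38 and -1.94 (limma adjusted p = 1.09e-06 and 8.45e-06). Meis3 was near background in both adipocyte groups, at 124 ± 69.4 in subcutaneous and 149 ± 164 in intraabdominal adipocytes, against 583 ± 80.3 in subcutaneous and 492 ± 173 in intraabdominal SVF. It was called lower in adipocytes of both depots (limma adjusted p = 0.00648 and 0.0125), with no size given because the lower level is not above background.

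Polycomb and trithorax proteins, retinoic acid receptors and Cdx factors set and hold Hox expression. Of 27 such genes 22 were on the array and 16 were tested. By depot 1 was called lower in subcutaneous adipocytes, where 8.13% of all probe sets were called: Phc2, a Polycomb subunit (log2 difference -1.07, limma adjusted p = 0.0449). In SVF 1 was called lower, where 12.9% of all probe sets were called: Ezh2, the methyltransferase of Polycomb complex PRC2, at 401 ± 65.1 in subcutaneous against 879 ± 55.6 in intraabdominal SVF (log2 difference -1.07, limma adjusted p = 0.00335). Between fractions 1 was called higher and 6 lower in subcutaneous adipocytes, and 2 higher and 8 lower in intraabdominal adipocytes. Of all probe sets 23.5% were called higher and 29.4% lower in the subcutaneous depot, and 22.4% higher and 29% lower in the intraabdominal depot. Those lower in both included Kmt2a, the trithorax methyltransferase (-1.77 and -1.69, limma adjusted p = 1.17e-06 and 1.87e-06), and Rnf2, the ubiquitin ligase of Polycomb complex PRC1 (-2.14 and -2.01, limma adjusted p = 5.64e-06 and 1.01e-05). The median log2 difference of the list was -0.12 in the subcutaneous and -0.27 in the intraabdominal depot, against -0.04 and -0.11 for all probe sets. Probe sets of a gene disagreed in places. A second Kmt2a probe set was not called between fractions. A second tested Rnf2 probe set was not called between subcutaneous fractions (-0.37, limma adjusted p = 0.449). It was called lower in intraabdominal adipocytes (limma adjusted p = 0.000715), where it was near background. A dimmer probe set (103746_at) of Suz12, a PRC2 subunit, was called lower in subcutaneous adipocytes by depot (limma adjusted p = 0.0276). The brighter was not. That dimmer probe set was near background in subcutaneous adipocytes, at 74.7 ± 12.5 against 231 ± 53.7 in intraabdominal adipocytes.

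Listed genes on either side of the cluster on chromosome 15 were called by depot about as often as all probe sets. They lie up to 20 protein-coding genes away, and the list does not hold every gene of that stretch. Of 25 neighbours found there, 17 were on the array and 15 were tested. None was called between adipocytes of the depots, where 8.13% of all probe sets were called, and 1 was called in SVF, where 12.9% were: Tarbp2, an RNA-binding partner of Dicer, lower in subcutaneous SVF by a log2 difference of -1.23 (limma adjusted p = 0.0266). On the mean of both fractions, where 15% of all probe sets were called, Tarbp2 was lower (-1.07, limma adjusted p = 0.00840) and Prr13 higher (0.53, limma adjusted p = 0.0312) in the subcutaneous depot. Between fractions 6 of the neighbours were called higher in adipocytes and 5 lower in the subcutaneous depot, with 5 and 7 in the intraabdominal depot, where 52.8% and 51.3% of all probe sets were called. Csad, an enzyme of taurine synthesis, was higher in adipocytes by log2 differences of 1.33 and 1.65 (limma adjusted p = 1.31e-06 and 1.30e-07). Itga5, the integrin receptor for fibronectin, was near background in subcutaneous adipocytes. It averaged 77.5 ± 51.2 in subcutaneous and 191 ± 116 in intraabdominal adipocytes, against 2114 ± 262 in subcutaneous and 3151 ± 976 in intraabdominal SVF, and was called lower in adipocytes of both depots (limma adjusted p = 5.03e-07 and 1.32e-06).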

How the data were processed

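RNA of 12 samples was hybridised to Affymetrix mouse arrays of 12488 probe sets. Each deposited value is a linear intensity that the authors made with MAS5, per the submitters' processing notes. Sources used here name neither its version nor a genome build. Trimmed means (2%) of the arrays agreed within a ratio of 1.00017, so values were taken as deposited.

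The 66 control probe sets were left out, as were the dimmest 30% of the others by mean log2 signal. For the remaining 8695, log2 of the signal plus 40.09 (the 10th percentile of all values) was fitted with 4 group means in limma 3.58.1 (R 4.3.3, eBayes with an intensity trend). Benjamini-Hochberg adjustment ran over all 8695, and calls had an adjusted p under 0.05. The number of arrays limits the precision: 8 residual degrees of freedom. On simulated data for subcutaneous against intraabdominal SVF (8695 probe sets, 200 changed), 47% of 2-fold and 86% of 4-fold changes were recovered, and 5% of calls were false.

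The Hoxc genes and the gene lists were chosen with earlier results of these data known. Beside the Hoxc genes, the text names the 3 genes most alike each of them, called paralogs, and up to 4 called genes of each list and comparison. It also names Hoxa7, for its place near Hoxc8 among the Hox probe sets, and Meis1 and Meis2, the cofactors on the array that were not tested. Gene names came from the platform annotation, and the highest-mean probe set stood for a gene in list counts. Replicate numbers gave no sign of pairing: of 18 same-number pairs 1 had a correlation of deviations over 0.1 (range -0.09 to 0.11). Such correlations cannot tell whether arrays shared pools. Alternatives were the pseudocount, the filter, the normalization, array weights, the arrays fitted, a replicate block, the actin ratio as a covariate, no intensity trend, and each array left out.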

Additional observations from a re-analysis of the deposited data

Results flagged for a closer look

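The depot difference of Hoxc8 and of Hoxc9 differed between adipocytes and SVF in a direct test. The interaction, adipocytes minus SVF of the subcutaneous minus intraabdominal difference, was 0.88 for Hoxc8 (limma adjusted p = 0.0351) and 1.18 for Hoxc9 (limma adjusted p = 0.0139), on the log2 scale with 3 arrays per group.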

How the results depend on the processing

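Of 680 repeats of the 5 genes' differences, 594 kept direction and side of the threshold, 56 lost a call, 2 gained one and 28 changed sign. The number of Hoxc genes called by depot in adipocytes, 2, was 1 with centred arrays, with array weights or with no intensity trend, and 0 with only the groups compared or with the actin covariate. The numbers called between fractions, 3 in each depot, were 0 with the covariate. With Hoxc8 lost they were 2 with centring and with no intensity trend in both depots, with only the groups compared in the subcutaneous, and with no filter or quantile normalization in the intraabdominal depot. With array weights 3 were called in the subcutaneous depot, Hoxc5 (limma adjusted p = 0.0486) in place of Hoxc8. The depot by fraction count changed too: the 2 interactions called became 1 with centring, with the covariate and with no intensity trend. Without single arrays the counts were 0 to 2 by depot in adipocytes, 1 to 3 and 2 to 3 between fractions in the subcutaneous and intraabdominal depot, and 1 to 2 for the interaction. In SVF and on the mean of both fractions the count was 1 under every alternative run. The rule for background decided how many of 20 gene and group combinations counted as above it: with the 90th percentile of 28 probe sets of genes not expected in fat, 7 did (Hoxc8 in all 4 groups).

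Signs changed as follows. Centred, Hoxc9 between intraabdominal fractions was 0.0062 and the Hoxc6 interaction -0.14 (-0.031 with quantile normalization). With the actin covariate Hoxc4 was 0.47 by depot in adipocytes and 0.54 between intraabdominal fractions, and Hoxc8 was 0.086 between intraabdominal fractions. Hoxc6 with it was -0.44 by depot in adipocytes, -0.96 and -0.32 between subcutaneous and intraabdominal fractions, -0.64 in the interaction and -0.12 on the mean of both fractions. Leaving out single arrays gave ranges that cross 0 for Hoxc4 by depot in adipocytes (-0.30 to 0.21) and between subcutaneous fractions (-0.056 to 0.45), for Hoxc5 by depot in SVF (-0.056 to 0.51) and on the mean of both fractions (-0.19 to 0.10), and for the Hoxc6 interaction (-0.16 to 0.30). None of these 5 was a call. The cause was not tested. Of the 28 sign changes 3 were of called differences, all with the covariate, which differs between the fractions.

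The fit with the replicate number as a block changed no call of the 5 genes. Every group holds every replicate number, so the block cannot change a log2 difference, only its p. The limma adjusted p became 4.58e-05 for Hoxc8 by depot in SVF and 0.0395 for Hoxc9 by depot in adipocytes. Each array was most alike in deviations to one of its own number in 3 of 12 cases.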
